A study of Rattus norvegicus with 5 samples.

Results

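The protein phosphatase transcripts described here are the genes whose symbols begin with Ppp and a digit, Ptpn, Ptpr, or Dusp and a digit. *Ppp1r15a* was left out, and where a gene had several probe sets, the one with the highest mean of the 5 arrays stood for it. The name rule gave 62 of the 4736 genes that the rat array could be read for. It used no measured difference, although it was chosen with earlier results of these data known. The 62 genes comprised 3 catalytic and 11 regulatory subunits of protein phosphatase 1 (PP1), 7 subunits of protein phosphatase 2A (PP2A), 4 of calcineurin, 3 of the Ppp4 to Ppp6 enzymes, 11 non-receptor (Ptpn) and 18 receptor-type (Ptpr) tyrosine phosphatases and 5 dual-specificity (Dusp) phosphatases. *Ppp2ca* shares its probe set with another symbol and was therefore not among them.

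The study asked which transcripts mark hypothalamic neurons that make thyrotropin-releasing hormone (TRH). Cultures were prepared from the hypothalamus of Wistar rat embryos at day 17, and RNA of 3 cell populations was hybridized, 1 colour per array. GFP+ cells (2 arrays) had been transfected, 24 h after seeding, with a plasmid that drives green fluorescent protein from the *Trh* promoter, and were sorted for fluorescence 48 h later. GFP+/- cells (2 arrays) came from cultures transfected in the same way and passed through the sorter without selection. NT cells (1 array) were not transfected and, as far as the protocols say, did not pass the sorter, so transfection and sorter passage cannot be told apart in any comparison with NT cells. The GFP+ RNA was a pool of 6 experiments, and the GFP+/- and NT RNAs were pools of 3. The labels call the 2 arrays of a population biological replicates, whereas the methods describe aliquots of one pooled RNA, so each p-value below measures the spread between arrays only. The NT array stands alone, and its spread was taken to be that of the other arrays.

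Protein phosphatases remove the phosphate groups that kinases add. PP1 and PP2A dephosphorylate serine and threonine, and take their targets and location from regulatory subunits, whereas calcineurin is switched on by calcium and calmodulin and is abundant in neurons. Most, but not all, Ptpn and Ptpr proteins act on phosphotyrosine, and the Ptpr group are membrane proteins of axons, glia and leukocytes. The Dusp enzymes inactivate MAP kinases, several of them as products of immediate early genes.

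Upstream sequence was taken from RefSeq (build GRCr8) and was found for 54 of the 62 genes. It is shown for the 3 Dusp genes with the highest signals, because Dusp transcripts are known to follow stimuli. It is also shown for *Ppp1cb* and *Ptpn23*. By the probe set used, these had the largest differences from NT cells among the members of high signal. Each line holds the 250 bases before the transcription start, 5′ to 3′ on the gene's strand. Capitals mark TGACG or its complement CGTCA, the core of a cyclic AMP response element (CRE), and the CArG box, the motif bound by serum response factor, which is CC, then 6 bases that are A or T, then GG.
Dusp1, chr10:17184603-17184852, plus strand: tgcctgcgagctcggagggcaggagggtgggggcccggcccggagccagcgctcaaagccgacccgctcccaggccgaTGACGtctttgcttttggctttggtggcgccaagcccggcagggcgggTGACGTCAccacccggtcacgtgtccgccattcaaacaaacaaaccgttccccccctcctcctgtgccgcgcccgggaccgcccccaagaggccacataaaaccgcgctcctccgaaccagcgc
Dusp5, chr1:262543524-262543773, plus strand: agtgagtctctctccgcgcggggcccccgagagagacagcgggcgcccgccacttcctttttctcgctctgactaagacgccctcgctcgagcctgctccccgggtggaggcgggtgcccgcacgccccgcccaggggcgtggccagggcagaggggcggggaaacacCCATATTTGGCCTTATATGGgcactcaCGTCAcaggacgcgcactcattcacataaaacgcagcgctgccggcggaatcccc
Dusp6, chr7:35979354-35979603, plus strand: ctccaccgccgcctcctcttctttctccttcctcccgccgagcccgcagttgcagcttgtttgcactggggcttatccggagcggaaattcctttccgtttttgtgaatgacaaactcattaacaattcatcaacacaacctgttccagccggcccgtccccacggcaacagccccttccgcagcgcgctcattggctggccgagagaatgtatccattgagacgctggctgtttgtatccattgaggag
Ppp1cb, chr6:29712836-29713085, minus strand: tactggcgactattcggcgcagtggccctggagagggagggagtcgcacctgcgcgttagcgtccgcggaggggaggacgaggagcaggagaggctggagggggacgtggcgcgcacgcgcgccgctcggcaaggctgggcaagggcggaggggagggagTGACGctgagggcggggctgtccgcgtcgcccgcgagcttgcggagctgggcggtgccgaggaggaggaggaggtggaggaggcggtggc
Ptpn23, chr8:119261676-119261925, minus strand: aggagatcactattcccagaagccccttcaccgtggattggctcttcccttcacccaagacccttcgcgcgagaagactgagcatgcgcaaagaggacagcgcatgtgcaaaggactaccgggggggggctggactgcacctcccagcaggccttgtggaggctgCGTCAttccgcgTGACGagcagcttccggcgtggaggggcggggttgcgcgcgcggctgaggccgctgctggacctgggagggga
The *Dusp1* window held 3 CRE cores, of which an overlapping pair formed the full element TGACGTCA. *Dusp5* held 2 adjacent CArG boxes, 82 to 63 bases before the start, and 1 CRE core, whereas the *Dusp6* window held neither motif. *Ppp1cb* held 1 CRE core and *Ptpn23* held 2. On either strand, the CRE core occurred in 29.6% of the 54 member windows, 25.1% of 3871 windows of genes on the array and 19% of all 27457 windows, and the full element in 5.56%, 2.32% and 1.7%. A CArG box was found in 1.85%, 1.6% and 1.5% of the windows, so that *Dusp5* was the only member with one. These are letter matches and not mapped binding sites.

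The values are MAS5 signals, a linear intensity per probe set, scaled so that the trimmed mean of every array was about 501. The number of arrays limits the precision. Mean signals of the members lay between 3.45 and 6667, and 32 of the 62 were bright, which here means a mean signal among the highest 41% of all probe sets, as it was for 2336 of all 4736 genes. Between the 2 GFP+ arrays 2 members differed by more than 2-fold (3.23%, against 13.4% of all genes), and between the 2 GFP+/- arrays 6 did (9.68%, against 10.7%). None of these was bright. The 3′/5′ signal ratio of the *Gapdh* control probe sets, which rises as the labelled RNA gets shorter, was 14.6 and 17.6 on the GFP+ arrays, 12.7 and 14.2 on the GFP+/- arrays and 5.45 on the NT array. For the beta-actin controls the ratio was 22.9 and 18.7 on the GFP+ arrays, 31.4 and 14.4 on the GFP+/- arrays and 10.9 on the NT array. The NT array was the lowest by both controls, so this difference moves with every comparison against NT cells. By *Gapdh*, both GFP+ arrays were also above both GFP+/- arrays, whereas by beta-actin these populations overlapped. The part of RNA length in the results of any comparison was not tested.

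Of the 32 bright phosphatase transcripts, 20 had both GFP+ arrays above both GFP+/- arrays, and none had both below. Among the 2336 bright genes, 31.2% were apart in the higher and 20.9% in the lower direction. The 20 included regulatory subunits of PP1 and PP2A, members of the Ptpn and Ptpr groups such as *Ptpn5* and *Ptprn*, and *Dusp5*. Their log2 differences were small, between 0.20 and 1.02 with a median of 0.50, and in limma none passed the adjusted threshold of 0.05 (lowest adjusted p = 0.196, for *Ptpra*). Over all 62 members 29 were apart and higher and 3 apart and lower, against 30.2% and 16.3% of all genes. The median log2 difference was 0.33 over the members and 0.11 over all genes. Single arrays moved the members' median. It was 0.18 without the first GFP+ array, against 0.12 over all genes, 0.48 without the second GFP+ array, against 0.11, and 0.23 without the second GFP+/- array, against 0.12.

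The test called 0 members in either direction in GFP+ against GFP+/- cells, as it called 0.0% of the 8740 probe sets higher and 0.0% lower. The unadjusted p was under 0.05 for 13 higher members and 1 lower member, against 9.15% and 4.75% of all probe sets. When only the 3586 bright probe sets were tested, 2.23% were called higher and 1.78% lower, and again 0 members were. By the ratio of averaged signals, 5 members were over 2-fold higher and 1 over 2-fold lower in GFP+ cells, against 6.97% and 3.72% of all genes, and only *Ptpra* among these 6 was bright. The array scaling bears on these counts. With arrays set to equal medians, the median over all genes moved to -0.05 and that over the members to 0.17. Then 12 of the 32 were apart and higher and 6 apart and lower, against 18.2% and 32.5% of the bright genes. After quantile normalization the counts were 16 and 2, against 25.1% and 24.3% of them.

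**Figure D1:**
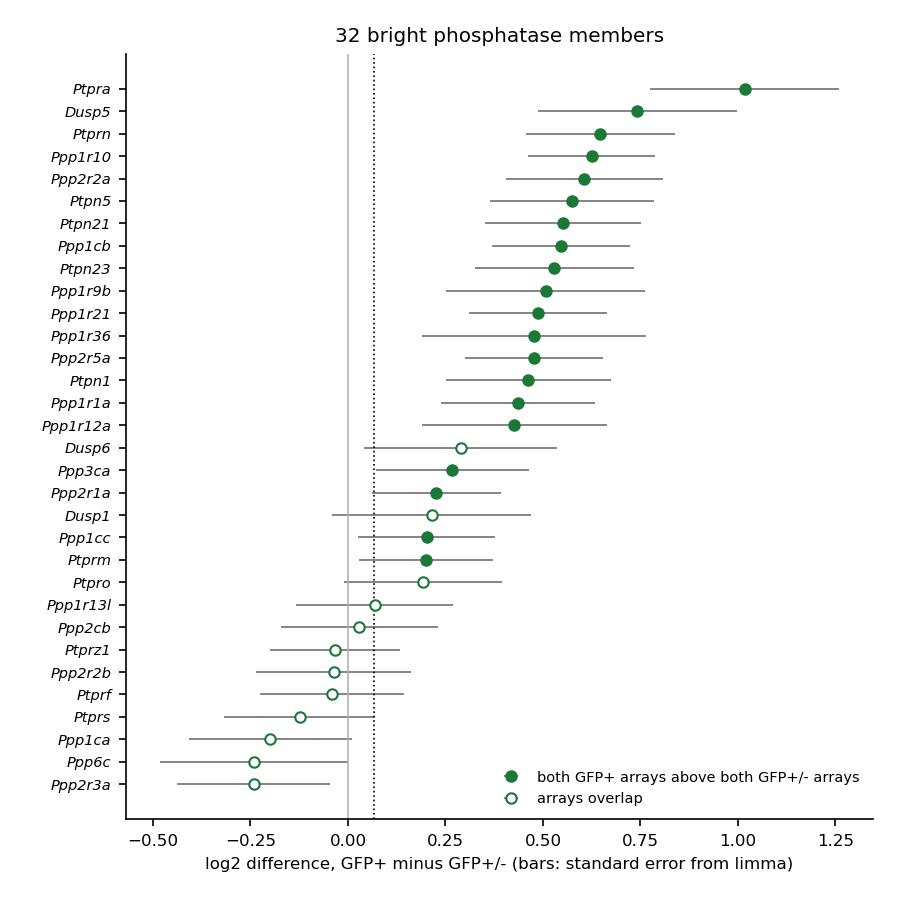
Log2 difference of GFP+ minus GFP+/- cells (horizontal axis) for the 32 bright phosphatase genes, ordered by size, with bars for the standard error from limma and a dotted line at the median of all bright genes. Filled points mark the 20 genes whose GFP+ arrays both exceeded both GFP+/- arrays; these run down to 0.20, and the lowest open point is *Ppp2r3a* at -0.24.

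Cell-type markers moved in the same comparison. The summed signal of 10 fibroblast and matrix genes was 17540 and 26240 on the GFP+ arrays, against 51690 and 51110 on the GFP+/- arrays and 22950 on the NT array. That of 7 neuronal genes was 26160 and 22150 in GFP+, against 17290 and 18700 in GFP+/- and 32930 in NT cells. By the median log2 difference of GFP+ from GFP+/- cells, the fibroblast list stood at -1.45 and the neuron list at 0.51, with 7 of 10 fibroblast genes over 2-fold lower and 1 of 7 neuronal genes over 2-fold higher, and 0 of their genes passed the adjusted test. Among bright probe sets alone, 6 of the 8 bright fibroblast genes were called lower and 1 of the 5 bright neuronal genes (*Nefl*) higher, where 0 members were. Of 4 bright astrocyte genes, 1 was called higher there too. This was *Aldh1l1*, with 509 and 333 in GFP+ and 140 and 159 in GFP+/- cells. The median of the astrocyte list was 0.09. Against NT cells, 1 neuronal gene was called lower in GFP+ cells and 4 in GFP+/- cells. *Mapt* (tau), a neuronal marker, had a signal between 7321 and 12752 on every array. In RNA of mixed cells, fewer cells of a type and less RNA per cell cannot be told apart, and the part of cell composition in the phosphatase differences was not tested.

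The catalytic subunits of PP1 behaved unlike one another. *Ppp1cb*, the beta isoform, had signals of 519 and 626 in GFP+ cells, 388 and 393 in GFP+/- cells and 4558 in NT cells. The NT array was far above the other 4, and both GFP+ arrays were above both GFP+/- arrays. By this probe set, *Ppp1cb* was the most reduced member in both comparisons with NT cells. The log2 difference was -3.00 (SE 0.22, limma adjusted p = 0.00808) in GFP+ cells and -3.54 (SE 0.22, limma adjusted p = 0.00514) in GFP+/- cells. The averaged signal was 7.96 times as high in NT as in GFP+ cells, and 11.7 times as high as in GFP+/- cells. A second *Ppp1cb* probe set, with 610.5 and 949 in GFP+ cells, 790.2 and 689 in GFP+/- cells and 2405 in NT cells, fell by less, by 1.66 (adjusted p = 0.0341) and 1.70 (adjusted p = 0.03). The first set placed GFP+ above GFP+/- cells by 0.55 (SE 0.18) and the second by 0.04, and neither difference passed.

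*Ppp1cc*, the gamma isoform, had 3628 and 3079.9 in GFP+ cells, 3038 and 2779 in GFP+/- cells and 4334 in NT cells. Its order was that of *Ppp1cb*, with NT highest and GFP+/- lowest, over a much narrower range. *Ppp1ca*, the alpha isoform, had 3026 and 2844 in GFP+ cells, 3958 and 2867 in GFP+/- cells and 2121 in NT cells, so that here the NT array was the lowest. The differences of *Ppp1cc* and *Ppp1ca* from NT cells were -0.37 and 0.47 in GFP+ and -0.58 and 0.67 in GFP+/- cells, and none passed (adjusted p between 0.171 and 0.371).

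Among the 11 PP1 regulatory genes, 10 had a positive difference between GFP+ and GFP+/- cells, with arrays apart and higher in 7. Among all genes, 2842 of 4736 had a positive difference and 30.2% were apart and higher. The median difference of the PP1 regulatory genes was 0.44. *Ppp1r10*, a nuclear targeting subunit, had 746 and 774 in GFP+, against 499 and 487 in GFP+/- and 584 in NT cells, a difference of 0.62 (SE 0.16, adjusted p = 0.218). Arrays of one population lay closely together in this gene and the NT array fell between them.

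*Ppp1r1a*, which encodes inhibitor 1, a protein that blocks PP1 once protein kinase A has phosphorylated it, had 1777 and 1401 in GFP+ cells, 1273 and 1069 in GFP+/- cells and 716 in NT cells. The populations did not overlap and ran downwards in that order. *Ppp1r1a* exceeded its NT signal in GFP+ cells by 1.14 on the log2 scale (SE 0.24, limma adjusted p = 0.0468), a call that was lost with arrays set to equal medians (adjusted p = 0.0568). The difference of GFP+/- from NT cells was 0.70 (SE 0.24, adjusted p = 0.142). A second, dimmer *Ppp1r1a* probe set gave 1.08 (adjusted p = 0.0969) and 0.81 (adjusted p = 0.181).

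*Ppp1r12a*, the myosin-targeting subunit, had 486 and 361 in GFP+ cells, 336 and 289 in GFP+/- cells and 181 in NT cells, in the same order as *Ppp1r1a*. Its averaged signal in GFP+ cells was 2.34 times that in NT cells, with a log2 difference of 1.21 (SE 0.29) that did not pass (adjusted p = 0.0632). Both of its other probe sets were also higher in GFP+ than in NT cells, by 0.44 and 3.17, without passing. *Ppp1r21*, known for a role at endosomes, had 1038 and 1000.2 in GFP+, against 659.9 and 801 in GFP+/- and 1108 in NT cells, so that GFP+/- cells were the lowest. *Ppp1r9b* (spinophilin), which holds PP1 in dendritic spines, had 834 and 531 in GFP+ cells, 464 and 473 in GFP+/- cells and 610.2 in NT cells, with a wide gap between the GFP+ arrays.

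The related *Ppp1r9a* (neurabin) was dim, with 5.89 and 4.72 in GFP+, against 53.9 and 39.6 in GFP+/- and 3.07 in NT cells. Only the GFP+/- arrays stood out. *Ppp1r9a* was called higher in GFP+/- than in NT cells (log2 difference 3.91, SE 0.60, limma adjusted p = 0.0227), and its difference of -3.13 between GFP+ and GFP+/- cells did not pass (adjusted p = 0.143). With 16 added to each signal, the difference from NT cells shrank to 1.71.

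**Figure D2:**
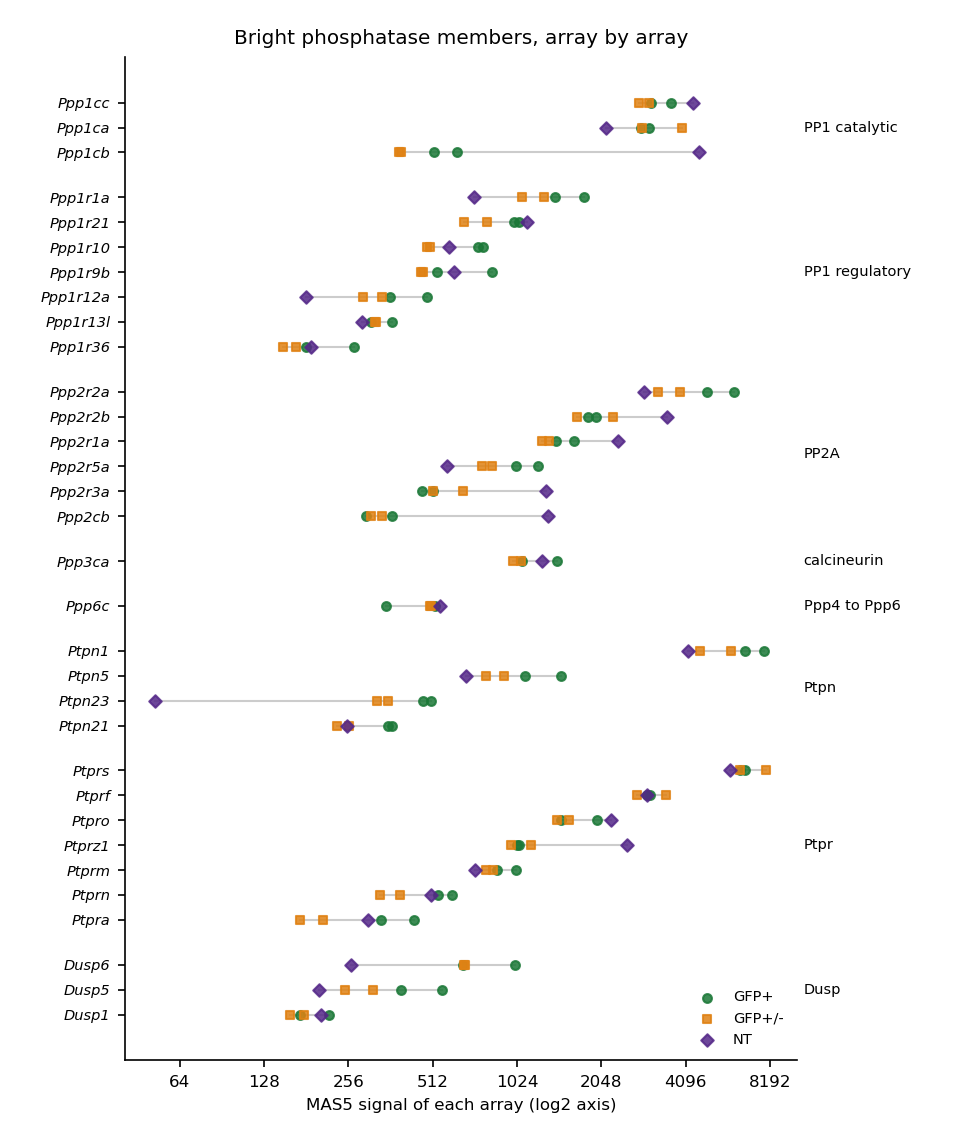
MAS5 signal of each array (horizontal log2 axis) for the 32 bright phosphatase genes, grouped by family, with circles for GFP+, squares for GFP+/- and diamonds for NT cells and a grey line over the range of the 5 arrays. The longest lines belong to *Ppp1cb*, with the NT array at 4558, and *Ptpn23*, with the NT array at 52.3.

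Subunits of PP2A differed in direction between NT and the other cells. *Ppp2cb*, a catalytic subunit, had 295 and 367 in GFP+ cells, 308 and 337 in GFP+/- cells and 1320.4 in NT cells. The 4 arrays of transfected cells were interleaved and the NT array was far above them. *Ppp2cb* was lower than in NT cells by a log2 difference of -2.01 (SE 0.25, limma adjusted p = 0.0151) in GFP+ cells and -2.03 (SE 0.25, limma adjusted p = 0.0146) in GFP+/- cells. GFP+ and GFP+/- cells differed by 0.03 (SE 0.20).

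*Ppp2r3a*, a calcium-binding regulatory subunit of the B″ class, had 513 and 469 in GFP+, against 656 and 513 in GFP+/- and 1300.2 in NT cells. It was lower in GFP+ than in NT cells by -1.41 (SE 0.24, limma adjusted p = 0.0284) and in GFP+/- than in NT cells by -1.16 (SE 0.24, limma adjusted p = 0.0416). The second *Ppp2r3a* probe set was called too, at -1.27 (adjusted p = 0.0481) and -1.36 (adjusted p = 0.038). After quantile normalization or scaling to equal medians, the first set missed the threshold in GFP+/- cells (adjusted p = 0.0563 and 0.0568).

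*Ppp2r1a*, the scaffold subunit, had 1635 and 1410.4 in GFP+ cells, 1335 and 1261 in GFP+/- cells and 2340.5 in NT cells. Its differences from NT cells, -0.62 (adjusted p = 0.127) and -0.85 (adjusted p = 0.0591), did not pass. In a dimmer second set, the values were 472 and 592 in GFP+, against 396 and 459 in GFP+/- and 1689 in NT cells. That set passed, at -1.68 (adjusted p = 0.0204) and -1.99 (adjusted p = 0.0149), so the 2 sets shared a direction and differed in size.

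The regulatory subunits of the B class went separate ways. *Ppp2r2a* had 6089 and 4867 in GFP+ cells, 3908 and 3273 in GFP+/- cells and 2897 in NT cells, with the GFP+ arrays the highest. Between GFP+ and GFP+/- cells the log2 difference was 0.61 (SE 0.20, adjusted p = 0.287), and another bright *Ppp2r2a* set gave 0.62. *Ppp2r2b*, a form expressed mainly in neurons, had 1829.8 and 1955 in GFP+, against 1676 and 2245 in GFP+/- and 3504 in NT cells. The NT array was the highest, by a log2 difference that did not pass (-0.89 and -0.85, limma adjusted p = 0.0861 and 0.093). In a second, dimmer *Ppp2r2b* set the GFP+/- arrays were the highest, at 185 and 199.9, against 115 and 144 in GFP+ and 130 in NT cells. *Ppp2r5a*, of the B′ class, had 1213 and 1019 in GFP+ cells, 766 and 834 in GFP+/- cells and 575 in NT cells. This was the order of the brightest *Ppp2r2a* set, and GFP+ cells differed from NT cells by 0.95 (limma adjusted p = 0.0553).

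**Figure D3:**
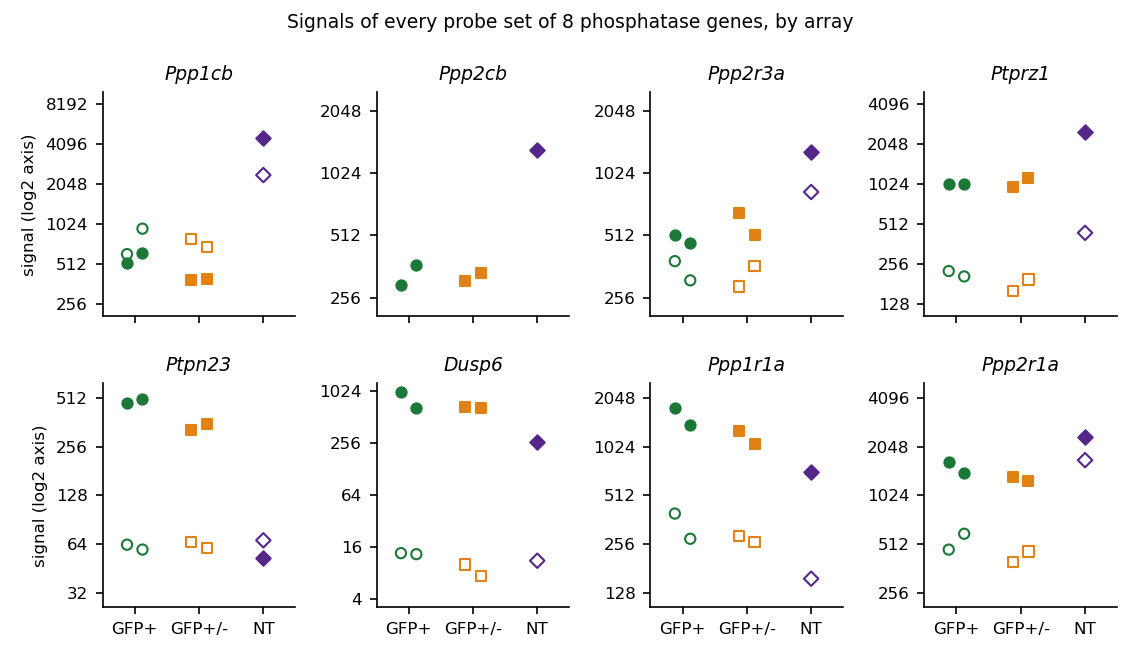
Signal of each array (vertical log2 axis, a separate range in each panel) in GFP+, GFP+/- and NT cells for every probe set of 8 phosphatase genes, with filled symbols for the set used and open symbols for the others. Both sets of *Ppp1cb*, *Ppp2r3a*, *Ptprz1* and *Ppp2r1a* are highest in NT cells, whereas the 2 sets of *Ptpn23* part, with the open one near 60 on every array.

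Of the calcineurin genes, *Ppp3ca*, a catalytic subunit, was the only bright one. It had 1419 and 1068 in GFP+, against 993 and 1053 in GFP+/- and 1257 in NT cells, where GFP+ 2 was barely above the GFP+/- arrays. The differences of *Ppp3ca* were 0.27 (SE 0.20) between GFP+ and GFP+/- cells and -0.03 between GFP+ and NT cells. *Ppp3r1*, the regulatory subunit, had 129.7 and 134 in GFP+ cells, 94.1 and 115 in GFP+/- cells and 95.8 in NT cells. *Ppp3cb* and *Ppp3r2* stayed under 45 on every array. No calcineurin gene passed in any comparison.

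*Ppp6c*, the catalytic subunit of phosphatase 6, had 348 and 519.7 in GFP+, against 504 and 501 in GFP+/- and 542 in NT cells. Only the first GFP+ array differed from the rest. *Ppp5c* had 234 and 125 in GFP+ cells, 131 and 129 in GFP+/- cells and 186 in NT cells, again with the first GFP+ array apart from the second. *Ppp4r3b*, a regulatory subunit of phosphatase 4, was dim and had a GFP+ over GFP+/- ratio of 2.77.

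Among the Ptpn genes, *Ptpn1* (PTP1B), an enzyme of the endoplasmic reticulum that dephosphorylates the insulin receptor and JAK2, had 7818 and 6667 in GFP+, against 4599 and 5966 in GFP+/- and 4159 in NT cells. The populations ran downwards in that order, with a difference of 0.46 (SE 0.21, adjusted p = 0.403) between GFP+ and GFP+/- cells and 0.80 (adjusted p = 0.129) between GFP+ and NT cells. Its 5 probe sets did not share one pattern. One with 836 and 401 in GFP+ cells, 887 and 777 in GFP+/- cells and 137 in NT cells was called higher than in NT cells, by 2.08 (adjusted p = 0.0472) in GFP+ and 2.60 (adjusted p = 0.0271) in GFP+/- cells.

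*Ptpn5* (STEP), a tyrosine phosphatase of neurons that acts on MAP kinases and glutamate receptors, had 1472 and 1097 in GFP+, against 923 and 789.8 in GFP+/- and 675 in NT cells. The GFP+ arrays were the highest and the NT array the lowest, with a difference of 0.57 (SE 0.21, adjusted p = 0.321) between GFP+ and GFP+/- cells and of 0.91 (SE 0.26, adjusted p = 0.0914) between GFP+ and NT cells. *Ptpn21*, a cytoskeleton-associated enzyme, had 365 and 354 in GFP+ cells, 234 and 257 in GFP+/- cells and 253 in NT cells, so that GFP+ cells alone were higher.

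*Ptpn23*, which takes part in endosomal sorting, had 474 and 505 in GFP+, against 323 and 355 in GFP+/- and 52.3 in NT cells. The NT array was far below the others, and the GFP+ arrays were above the GFP+/- arrays. *Ptpn23* showed the largest increase of any bright member over NT cells, by 3.22 (SE 0.25, limma adjusted p = 0.00808) in GFP+ and 2.70 (SE 0.25, limma adjusted p = 0.0109) in GFP+/- cells. A second *Ptpn23* set had 63.3 and 59.1 in GFP+ cells, 65.6 and 60.2 in GFP+/- cells and 67.4 in NT cells and moved in no direction.

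*Ptpn6* (SHP-1), an enzyme mainly of leukocytes, was dim, with 87.6 and 104 in GFP+, against 11.4 and 11.8 in GFP+/- and 126 in NT cells. The GFP+/- arrays were the low ones. *Ptpn6* was called lower in GFP+/- than in NT cells (log2 difference -3.43, SE 0.50, limma adjusted p = 0.0206), and its difference of 3.04 (SE 0.41) between GFP+ and GFP+/- cells did not pass (adjusted p = 0.125). A second *Ptpn6* set stayed between 12.9 and 17.8. The summed signal of 7 microglia and leukocyte genes was also lowest in GFP+/- cells, at 671 and 585 in GFP+ cells, 330.2 and 246 in GFP+/- cells and 643 in NT cells. Without *C1qb*, at 262 on the NT array and left out after its values were seen, it was 579.7 and 574.3 in GFP+, against 320 and 229.4 in GFP+/- and 380.8 in NT cells. *Csf1r* was lower in NT than in GFP+ cells, with 219 and 221 in GFP+, against 84.6 and 25.7 in GFP+/- and 59.1 in NT cells. None of these 7 was bright, 1 of them (*Itgam*) was called lower in GFP+/- than in NT cells, and of the defining markers *Aif1* lay between 39.6 and 68.3 on every array. Their part in the *Ptpn6* values was not tested. By its brightest set, *Ptprc* (CD45), the pan-leukocyte receptor phosphatase, was not lowest in GFP+/- cells. It had 159.9 and 88.5 in GFP+, against 119.7 and 115 in GFP+/- and 79 in NT cells. A very dim *Ptprc* set had 1.29 and 0.42 in GFP+, against 1.05 and 4.90 in GFP+/- and 27 in NT cells. That set was called lower in GFP+ than in NT cells (-4.58, limma adjusted p = 0.0443). Another stayed between 2.88 and 6.29.

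The Ptpr genes included 2 whose brightest probe set had signals close together on all arrays. *Ptprs*, a receptor of axons for proteoglycans, had 6683 and 6420.1 in GFP+ cells, 6416 and 7942 in GFP+/- cells and 5876 in NT cells. *Ptprf* (LAR), a relative that organises synapses, had 3047 and 2967 in GFP+, against 2752 and 3478 in GFP+/- and 2968 in NT cells. Differences of these *Ptprs* and *Ptprf* sets lay between -0.12 and 0.28 in the 3 comparisons. Other *Ptprs* sets differed from this. One had 1011 and 884 in GFP+, against 678 and 204 in GFP+/- and 535 in NT cells, which placed GFP+ above GFP+/- cells by 1.35 (SE 0.54, adjusted p = 0.358). Another bright set was also apart and higher in GFP+ cells, by 0.45 (adjusted p = 0.499).

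*Ptprz1*, a proteoglycan receptor of astrocytes and of oligodendrocyte precursors, had 1038 and 1023 in GFP+ cells, 971 and 1144 in GFP+/- cells and 2527 in NT cells. The 4 arrays of transfected cells overlapped and the NT array was more than 2-fold above each. *Ptprz1* was lower than in NT cells by -1.29 (SE 0.20, limma adjusted p = 0.0235) in GFP+ and -1.26 (SE 0.20, limma adjusted p = 0.0249) in GFP+/- cells. A second *Ptprz1* set gave -1.02 (adjusted p = 0.0873) and -1.31 (adjusted p = 0.0459). The summed signals of the glial lists were lowest in NT cells, although single glial genes were highest there. For 7 astrocyte genes the sum was 11510 and 14960 in GFP+, against 12480 and 12810 in GFP+/- and 9107 in NT cells, and for 7 oligodendrocyte lineage genes it was 1670 and 1685 in GFP+, against 1646 and 1570 in GFP+/- and 1417 in NT cells. *Glul* made up most of the astrocyte sum. *S100b* had 556 and 620 in GFP+, against 493 and 299.9 in GFP+/- and 679.9 in NT cells, and *Slc1a2* had 26.8 and 69.5 in GFP+, against 59.9 and 58.6 in GFP+/- and 129 in NT cells, so that the NT array was the highest for both. For *Pdgfra*, a marker of oligodendrocyte precursors, it was level with the GFP+/- arrays, with 249.8 and 363 in GFP+, against 465 and 508 in GFP+/- and 513 in NT cells. Their part in the *Ptprz1* values was not tested.

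*Ptpra*, which activates Src family kinases, had 437 and 335 in GFP+ cells, 208 and 172 in GFP+/- cells and 300.5 in NT cells. The GFP+/- arrays were the low ones. The ratio of averaged signals in GFP+ over GFP+/- cells was 2.03 and the log2 difference 1.02 (SE 0.24, adjusted p = 0.196). With the test restricted to bright probe sets, the adjusted p of *Ptpra* was 0.0526, still over the threshold. A second *Ptpra* set gave 0.40 (adjusted p = 0.619). *Ptprn* (IA-2), a protein of dense-core vesicles, which store neuropeptides and hormones, had 599 and 534 in GFP+, against 392 and 333 in GFP+/- and 505 in NT cells, and a difference of 0.65 (SE 0.19, adjusted p = 0.257). Both *Ptpra* and *Ptprn* thus had NT signals close to those of GFP+ cells and above those of GFP+/- cells.

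Of the Dusp genes, *Dusp6*, a cytoplasmic phosphatase of ERK that ERK signalling itself induces, had 1009.9 and 654 in GFP+ cells, 669.5 and 661 in GFP+/- cells and 262 in NT cells. The transfected arrays overlapped and the NT array was lower than all of them. *Dusp6* exceeded its NT signal by 1.63 in GFP+ cells (SE 0.30, limma adjusted p = 0.0341). In GFP+/- cells the difference was 1.34 (SE 0.30, adjusted p = 0.0524), just over the threshold. That value fell below the threshold under quantile normalization (adjusted p = 0.0473), equal medians (adjusted p = 0.044) and with 16 added (adjusted p = 0.0497). Among bright probe sets alone it was 0.00688, whereas with a prior variance that ignores intensity it stayed over the threshold. With 1 array left out, the difference lay between 1.33 and 1.35. A second, dim *Dusp6* set had 13.7 and 13.3 in GFP+, against 10.1 and 7.42 in GFP+/- and 11.2 in NT cells. There the NT array was not the lowest.

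*Dusp5*, a nuclear phosphatase of ERK, had 395 and 551 in GFP+, against 249 and 313 in GFP+/- and 200.3 in NT cells. The populations did not overlap, with differences of 0.74 (SE 0.26, adjusted p = 0.295) between GFP+ and GFP+/- and 1.22 (SE 0.31, adjusted p = 0.0744) between GFP+ and NT cells. *Dusp1*, the immediate early member with the full cyclic AMP response element above, had 218 and 172 in GFP+ cells, 177 and 158 in GFP+/- cells and 204 in NT cells, so that the 3 populations lay within a narrow range. Other *Dusp1* sets were dim and had their highest signal on the NT array, at 54.1 in one and 19.7 in another. *Dusp7* was flat and *Dusp4* was under 20 on every array.

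By the brightest probe set of each gene, *Dusp5* and *Dusp6* were thus both lowest in NT cells, whereas *Dusp1* was not. The *Dusp5* window held the CArG boxes, and that of *Dusp6* held neither motif. The dim *Dusp4*, without an upstream window, was also lowest in NT cells, at 9.2 against 11.6 to 18.6 on the other arrays. *Dusp7* was not. A lowest NT signal was common, with the NT array below all 4 others in 39.1% of the bright genes. A link between the motifs and these orders was not tested. Of 27 listed immediate early genes outside the name rule, 21 were measured. Of these, 9 were called higher in GFP+ than in NT cells and 0 lower, against 4.38% and 4.06% of all probe sets. In GFP+/- against NT cells 3 were called higher and 1 (*Klf10*) lower, against 4.2% and 5.03%. *Klf10* had 873 and 777 in GFP+, against 291 and 272 in GFP+/- and 675 in NT cells. The 21 genes had median log2 differences of 0.75 for GFP+ against GFP+/-, 1.34 for GFP+ against NT and 0.67 for GFP+/- against NT cells. Between GFP+ and GFP+/- cells 0 were called among all probe sets. Among the bright ones 5 were called higher, where 2.23% of all bright probe sets were. *Klf4*, with 749 and 581 in GFP+ and 176 and 115 in GFP+/- cells, was 2.21 higher, *Atf3* 1.78, *Nr4a3* 1.59, *Klf10* 1.55 and *Fos* 1.27.

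Against NT cells, 3 members in all were called higher in GFP+ cells (*Ptpn23*, *Dusp6* and *Ppp1r1a*) and 4 lower (*Ppp1cb*, *Ppp2cb*, *Ppp2r3a* and *Ptprz1*), where 4.38% and 4.06% of all probe sets were called. In GFP+/- cells 2 were called higher (*Ptpn23* and *Ppp1r9a*) and 5 lower (*Ppp1cb*, *Ppp2cb*, *Ppp2r3a*, *Ptprz1* and *Ptpn6*), against 4.2% and 5.03%. The members' counts are thus close to those shares, and the 2 comparisons share the NT array. By the ratio of averaged signals, 9 members were over 2-fold higher and 7 over 2-fold lower in GFP+ than in NT cells (13.6% and 11.1% of all genes), and 5 and 11 in GFP+/- than in NT cells (11.7% and 13.8%). All 7 calls in GFP+ cells were lost when any 1 of the GFP+ or GFP+/- arrays was left out, with the directions kept and the lowest adjusted p between 0.0546 and 0.0732. In GFP+/- cells 0 were called without either GFP+/- array and 3 without either GFP+ array. With a prior variance that ignores intensity, 0 were called in both comparisons. Among the 32 bright members, the NT array was above all 4 others in 10 and below all 4 in 13, against 30.4% and 39.1% of the bright genes.

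**Figure D4:**
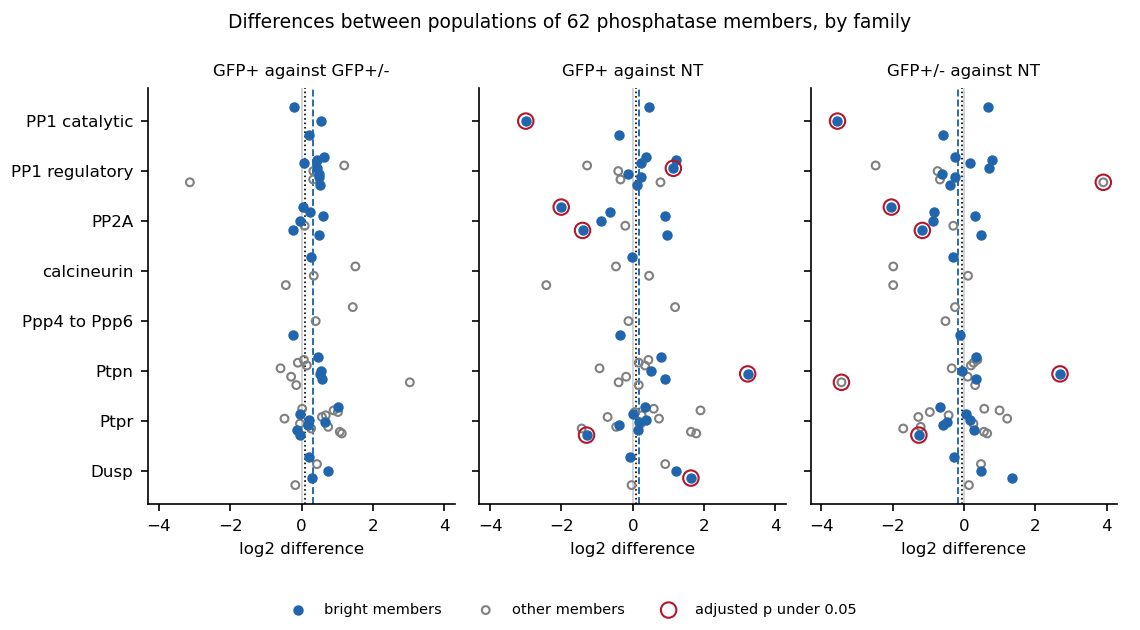
Log2 difference (horizontal axis) of the 62 phosphatase genes in the 3 comparisons, by family, with filled points for bright members, open points for the others, red rings for an adjusted p under 0.05, a dashed line at the members' median and a dotted line at the median of all genes. In GFP+ against GFP+/- cells the dashed line stands at 0.33 and no point is ringed, and in each comparison with NT cells 7 points are ringed.

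The remaining members were dim. Of the 18 Ptpr genes, 11 were not bright, and their arrays of one population often disagreed. *Ptpre*, for instance, had 58.1 and 86.1 in GFP+, against 9.73 and 125 in GFP+/- and 67.7 in NT cells, and no order could be read from it. *Ppp1r16b*, a PP1 subunit enriched in endothelium, had 33.5 and 57.5 in GFP+ cells, 21.3 and 17.2 in GFP+/- cells and 106 in NT cells, with a difference of -2.48 (SE 0.60, adjusted p = 0.0613) between GFP+/- and NT cells. *Ptpn2*, which dephosphorylates JAK and STAT proteins, was one of the 3 members with arrays apart and lower in GFP+ than GFP+/- cells, together with *Ptprj* and *Ppp1r9a*, and had 150.3 and 103 in GFP+, against 158 and 220.1 in GFP+/- and 237 in NT cells.

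Phosphatases outside the name rule were measured for 14 of 31 listed genes. Between GFP+ and GFP+/- cells 0 passed among all probe sets, and 3 were over 2-fold higher, against 6.97% of all genes. Among the bright ones 2 (*Ptp4a1* and *Synj1*) passed as higher (limma adjusted p = 0.0225 and 0.044), against 2.23% of all bright probe sets. *Ptp4a1*, a small membrane-bound tyrosine phosphatase, had 4901 and 5612 in GFP+ cells, 2455 and 2703 in GFP+/- cells and 8511 in NT cells, and was called lower in GFP+/- than in NT cells (-1.72, limma adjusted p = 0.0148). *Synj1*, a lipid phosphatase of synaptic vesicle recycling, had 4330 and 3116 in GFP+, against 2033 and 1673 in GFP+/- and 1535 in NT cells. Across this list, 2 genes were called higher and 1 lower in GFP+ than in NT cells, against 4.38% and 4.06% of all probe sets. In GFP+/- against NT cells 1 was called higher and 2 lower, against 4.2% and 5.03%. The lower one in GFP+ cells was *Ppm1b*, with 757 and 805 in GFP+ cells, 647 and 685 in GFP+/- cells and 1471 in NT cells.

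The kinases of the MAP kinase cascades, on which Dusp enzymes and *Ptpn5* act, were measured for 14 of 24 listed genes. None was called or over 2-fold between GFP+ and GFP+/- cells. The 2 called in each comparison with NT cells were both lower, *Mapk6* and *Map2k6*. Of all probe sets, 4.06% were called lower in GFP+ and 5.03% in GFP+/- than in NT cells. *Mapk6* had 319 and 418 in GFP+, against 347 and 470 in GFP+/- and 1771 in NT cells.

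Of 28 listed partners and inhibitors of calcineurin, PP1 and PP2A, 15 were measured. In GFP+ against GFP+/- cells 0 were called, and in each comparison with NT cells 1 was called higher, *Gsk3b*, and 1 lower, *Prkacb*. Of all probe sets, 4.38% were called higher and 4.06% lower in GFP+ than in NT cells, and 4.2% and 5.03% in GFP+/- cells. *Prkacb*, a catalytic subunit of protein kinase A, whose phosphorylation arms the product of *Ppp1r1a*, had 3479 and 3729 in GFP+ cells, 3003 and 3170 in GFP+/- cells and 7506 in NT cells. The NT array of *Prkacb* was the highest, where that of *Ppp1r1a* was the lowest. *Prkaca*, another catalytic subunit of protein kinase A on the list, had 425 and 566 in GFP+, against 426 and 459 in GFP+/- and 378 in NT cells. Its NT array was the lowest, as for *Ppp1r1a*.

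Endothelial genes were dim, with none of 3 measured being bright and sums between 161 and 262 over the 5 arrays. The 6 mural and smooth muscle genes summed to 2010 and 3791 in GFP+ cells, 9370 and 11470 in GFP+/- cells and 1574 in NT cells. Of these, 3 had a GFP+ signal more than 2-fold below that of GFP+/- cells, and 2 of the 3 bright ones were called lower among bright probe sets alone.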

How the data were processed

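RNA of GFP+, GFP+/- and NT hypothalamic cells had been hybridized to 5 rat arrays. The authors summarised each probe set with MAS5 as a linear signal intensity, with a single scaling factor for each array. The methods name another target for that scaling than the mean found in the deposited intensity values, which does not touch comparisons between arrays. Detection calls were not used. All columns were mapped to a population.

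The table held 8799 probe sets, 59 of them controls that did not enter. For the other 8740, the platform annotation gave 1 gene for 7006, several for 308 and none for 1426. The 62 members have 99 probe sets (24 members have several), and all symbols were found in the RefSeq gene table of GRCr8, used for names and upstream windows. Signals under 1 were set to 1 before log2. Populations were compared with limma 3.58.1 (R 4.3.3). The 5 arrays entered a single fit with a mean for each population and an intensity trend. The Benjamini-Hochberg adjustment ran over all 8740 probe sets, and 0.05 was the threshold. SE is limma's moderated standard error. Ratios of averaged signals over 2-fold, the measure of the study's methods, were counted with no p. The steps were tested on simulated data. Python 3.11.15 was used for tables (pandas 2.3.3, numpy 2.4.6) and plots (matplotlib 3.10.9).

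The members and gene lists were chosen with earlier results of these data known. Values per array are given for members that passed in a comparison, for bright ones over 2-fold and without overlap (bright: a mean signal among the highest 41%, 3586 probe sets), and for the 2 with the highest signals in each family. Other members are named for a role or a second probe set, and up to 4 of each pathway list for the largest differences. *Ppp2r1a*, *Ppp2r5a*, *Ppp1r10*, *Ppp1r9b*, *Ptprn*, *Ptpn21*, *Ppm1b*, *Mapk6*, *Map2k6*, *Gsk3b*, *Prkacb* and *Prkaca* were named after their values were seen. Single genes of the cell-type lists, among them *Aldh1l1*, *Csf1r*, *S100b*, *Slc1a2* and *Pdgfra*, fell under no naming rule and were also named with their values known. Alternatives were quantile normalization, equal medians, 16 added to each signal, bright probe sets alone, a prior without a trend, a fit without the NT array, a replicate block, each array left out, and all probe sets of a gene averaged.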

Additional observations from a re-analysis of the deposited data

How the results depend on the processing

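In GFP+ against GFP+/- cells, 0 members passed the adjusted test under every alternative tried. The members over 2-fold numbered 6, against 2 with 16 added and 1 among bright probe sets. Their median log2 difference was 0.33, 0.17 with equal medians, and between 0.18 (without the first GFP+ array) and 0.48 (without the second) with 1 array left out. Bright members with arrays apart, counted under other scalings after the data had been seen, were 20 higher and 0 lower, against 16 and 2 after quantile normalization and 12 and 6 with equal medians. In GFP+ against NT cells, 7 members passed, against 14 among bright probe sets and 0 with a prior without a trend, and 0 whichever of the GFP+ or GFP+/- arrays was left out. Those over 2-fold numbered 16, and 9 among the bright. The median of 0.17 became -0.0057 when all probe sets of a gene were averaged, 0.0945 without the first GFP+ array (0.11 over all genes) and 0.24 without the second. In GFP+/- against NT cells, 7 passed, against 0 without a trend and between 0 and 3 with 1 array left out (0 without either GFP+/- array, 3 without either GFP+ array). Those over 2-fold numbered 16, and 6 among the bright. The median of -0.18 became -0.041 after quantile normalization, -0.062 with equal medians, -0.11 with 16 added and -0.25 when probe sets were averaged, and lay between -0.20 and -0.17 with 1 GFP+/- array left out. The cause of these changes was not tested, except that restricting the set leaves fewer probe sets and leaving out an array leaves fewer samples. The members' 49 differences with an unadjusted limma p under 0.05 in the main fit were followed through the alternatives, whether or not named above. Of their 459 alternative values, 375 kept direction and side of the adjusted threshold, 17 moved past it and 67 lost it. A difference that had not passed and still did not pass counted as kept. None changed direction, but differences chosen by a small p are unlikely to, so this is no measure of stability.

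Arrays of the same replicate number did not deviate together clearly (r = 0.063 over all probe sets and 0.20 over bright ones). With the replicate block, 0 members passed in GFP+ against GFP+/- cells, with a lowest adjusted p of 0.107 (0.125 without the block). Signals of the 30 members that were not bright set the least reliable differences, and the arrays carry no read depth.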
